A study of Mus musculus with 6 samples.

Results

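Transcripts of 5 genes of cadherin-based cell contacts and their actin link were measured in B16F10 cells, a pigmented mouse melanoma line. The genes were Cdh1 and Cdh4, which encode classical cadherins, Arvcf, a catenin of the p120 family, Fer, a tyrosine kinase bound to p120 catenin and cortactin, and Cttnbp2, a cortactin binder. They were taken by name from a table of 99 genes. Poly(A) RNA was sequenced from 3 untreated libraries and from 3 libraries of cells after 48 h of MTyr-OANPs, and all cells carried the label WT. The labels do not expand MTyr-OANPs, which the series' design text spells MTy-OANPs and the table's headers TyrOA. The untreated cells were the sole controls, so the agent, its carrier and the handling cannot be told apart. The design text calls the replicates biological but does not describe the cultures, so each p-value reflects the spread among libraries, which may be technical.

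Classical cadherins join neighbouring cells by binding like molecules across the contact in the presence of calcium. Inside the cell, catenins of the p120 family hold the cadherin at the membrane and slow its removal, while beta-catenin and alpha-catenin tie it to actin filaments. Cortactin promotes branched actin at such contacts and at the cell edge, and tyrosine kinases such as Fer phosphorylate proteins of both. Melanocytes in the skin contact keratinocytes through E-cadherin, the product of Cdh1, and melanoma cells often lose it.

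Of the 5 genes, Arvcf fell and Cttnbp2 rose after MTyr-OANPs, each more than 4-fold, and Fer did not pass the test. Both cadherins were at or below the edge of detection in every library. The level of a gene is given as FPKM, fragments per kilobase of exon, scaled to library depth, which allows genes of different length to be compared. Testing used edgeR's quasi-likelihood test on counts, two-sided, with Benjamini-Hochberg adjustment over all 66 genes that had a mean count of at least 10 over the 6 libraries, and a threshold of 0.05. Arvcf, Fer and Cttnbp2 reached that count and the cadherins did not. Among the 66 tested genes 53 passed (80.3%), with 23 higher (34.8%) and 30 lower (45.5%), so 2 of 3 members passing is no more than the share in the table. A change of at least 4-fold was rarer, at 11 of the 66 (16.7%), and Arvcf and Cttnbp2 were among these 11. Members were chosen with earlier results of these data known, so this contrast is descriptive only.

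The 5 genes lie on different chromosomes, in GRCm38 coordinates as deposited. Fer (ENSMUSG00000000127) is at chr17:63863062-64139463 on the plus strand, Cdh1 (ENSMUSG00000000303) at chr8:106603351-106670246 on the plus strand and Cdh4 (ENSMUSG00000000305) at chr2:179442431-179899373 on the plus strand. Arvcf (ENSMUSG00000000325) is at chr16:18348182-18407076 on the plus strand and Cttnbp2 (ENSMUSG00000000416) at chr6:18366478-18514821 on the minus strand. The table lists 13 transcripts for Arvcf, 9 for Cttnbp2, 6 for Cdh4, 5 for Fer and 3 for Cdh1. Counts divided by FPKM gave lengths of 4.68 kb for Fer, 6.74 kb for Arvcf and 8.87 kb for Cttnbp2, beside 4680, 6715 and 8829 merged exonic bases in GENCODE M21. Cdh1 and Cdh4, at counts of 16 or fewer, gave longer lengths of 4.87 and 7.72 kb, beside 4574 and 7257 bases. The deposited values of Fer, Arvcf and Cttnbp2 thus cover all exons of each gene together, and isoforms were not resolved. Of the 99 genes, 2 carry the KEGG term for adherens junctions in the table, and these are Cdh1 and Fer. The KEGG term for cell adhesion molecules is carried by 4, among them Cdh1 and Cdh4.

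The windows around the starts of the 3 genes with ample counts are shown because their transcripts went down, gave no call or went up in the same libraries. Each runs from 250 bases before to 50 bases after a start in RefSeq (GRCm38.p6), written 5′ to 3′ on the gene's strand. Capitals mark E-boxes, which are CANNTG, and GC boxes, which are GGGCGG, on either strand. Cdh1 and Cdh4 are named only.
Arvcf, chr16:18347932-18348231, plus strand: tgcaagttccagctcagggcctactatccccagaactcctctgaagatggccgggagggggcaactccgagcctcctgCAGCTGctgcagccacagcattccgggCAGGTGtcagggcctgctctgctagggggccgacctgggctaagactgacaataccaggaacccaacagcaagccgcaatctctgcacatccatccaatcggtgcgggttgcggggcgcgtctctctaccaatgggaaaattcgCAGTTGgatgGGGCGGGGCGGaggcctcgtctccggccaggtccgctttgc
Fer, chr17:63863731-63864030, plus strand: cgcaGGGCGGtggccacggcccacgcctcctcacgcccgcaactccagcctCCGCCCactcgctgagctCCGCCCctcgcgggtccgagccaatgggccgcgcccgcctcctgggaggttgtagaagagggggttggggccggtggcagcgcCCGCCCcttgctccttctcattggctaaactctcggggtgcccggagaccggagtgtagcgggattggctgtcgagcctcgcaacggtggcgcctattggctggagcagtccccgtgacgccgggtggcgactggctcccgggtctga
Cttnbp2, chr6:18514820-18515119, minus strand: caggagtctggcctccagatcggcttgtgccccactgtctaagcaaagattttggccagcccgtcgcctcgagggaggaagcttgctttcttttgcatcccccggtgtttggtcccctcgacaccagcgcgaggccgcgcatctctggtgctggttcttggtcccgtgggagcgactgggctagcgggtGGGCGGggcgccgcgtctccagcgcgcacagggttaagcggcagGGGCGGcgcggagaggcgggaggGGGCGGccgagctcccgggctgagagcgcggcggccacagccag

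The Arvcf window holds 3 E-boxes, with CAGCTG at position -172 from the start, CAGGTG at -145 and CAGTTG at -1. The Fer and Cttnbp2 windows hold none. At the further starts that RefSeq gives, E-boxes number 1 at each of 2 starts of Arvcf, and 1 and 4 at 2 starts of Fer, so the difference between these genes depends on the start. An E-box is present in 72.3% of the 32851 promoter windows of this length in RefSeq, and CAGGTG or its complement, which is one form of the E-box and is bound by repressors of the Snail and Zeb families, in 20.2%. GC boxes number 2 in the Arvcf window, at 10 and 15 with a shared base, 4 in the Fer window and 3 in the Cttnbp2 window, against 35.7% of windows with at least 1. CCAAT, searched on both strands, occurs 2 times in the Arvcf window, 4 times in the Fer window and not in the Cttnbp2 window, and 37.4% of windows hold it. The share of G and C is 62.7% in the Arvcf window, 71.3% in the Fer window and 69.3% in the Cttnbp2 window, beside a median of 52.7%. The counts do not say which start was used. These matches describe letters and not binding.

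Cdh1, which encodes E-cadherin, had counts of 0, 12 and 4 in untreated libraries 1, 2 and 3 and of 8, 8 and 16 in treated libraries 1, 2 and 3. The corresponding levels were 0, 0.0319 and 0.0102 FPKM untreated and 0.0244, 0.0194 and 0.0386 FPKM treated. The groups overlapped, since untreated library 2 lay above treated libraries 1 and 2. Low counts in this table come mostly in steps of 4, so 3 events were taken as 12 counts, and the count of 0 in untreated library 1 then allows a level of up to 0.0296 FPKM. The mean was 0.0134 FPKM higher after treatment, which did not pass an exact permutation test over libraries (two-sided, p = 0.3, where 3 against 3 allows no p below 0.1). The difference was 0.00637 FPKM without untreated library 1, 0.0223 FPKM without untreated library 2 and 0.00782 FPKM without treated library 3. In the edgeR fit with no minimum, in which 51 of 83 genes passed (61.4%), the adjusted p of Cdh1 was 0.61. At counts this low, the mean difference of 0.0134 FPKM in Cdh1 could not be told from none. The smallest detectable difference was not computed.

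Cdh4 encodes R-cadherin, named for the retina and best known from the nervous system, kidney and muscle. It had a count of 4 in treated library 2, a level of 0.0061 FPKM, and a count of 0 in each of the other 5 libraries. These zeros allow levels of up to 0.0187, 0.0202 and 0.0196 FPKM in untreated libraries 1, 2 and 3 and of up to 0.0231 and 0.0182 FPKM in treated libraries 1 and 3, again at 12 counts. The groups overlapped at 0, with an edgeR adjusted p of 0.43 with no minimum. All 6 nonzero counts of both cadherins were multiples of 4, as were 30 of the 41 counts from 1 to 20 in the whole table. A count of 4 was therefore not read as 4 independent fragments, and the limits given cover counting error only.

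Arvcf encodes a catenin with armadillo repeats that binds the same membrane-near part of classical cadherins as p120 catenin. Its name comes from its deletion in velocardiofacial syndrome in humans. Its counts were 2611, 2197 and 2196 in untreated libraries 1, 2 and 3 and 369, 583 and 540 in treated libraries 1, 2 and 3. In FPKM these were 4.66, 4.24 and 4.11 untreated and 0.809, 1.02 and 0.936 treated. Every treated library lay far below every untreated one, and groups without overlap were found for 78.8% of the tested genes. The mean went from 4.34 ± 0.288 to 0.92 ± 0.105 FPKM (SD, n = 3 each), a 4.68-fold fall. The log2 fold change was -2.23 (SE 0.11, edgeR adjusted p = 5.6e-14), the fifth lowest of the 66. In rank of mean FPKM among the 99 genes, Arvcf went from 43 to 53. Whether reads were counted by strand is not stated in the sources read, so the count of a member may include reads of a gene that overlaps it, which bears most on low values such as those of Arvcf after treatment.

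**Figure D1:**
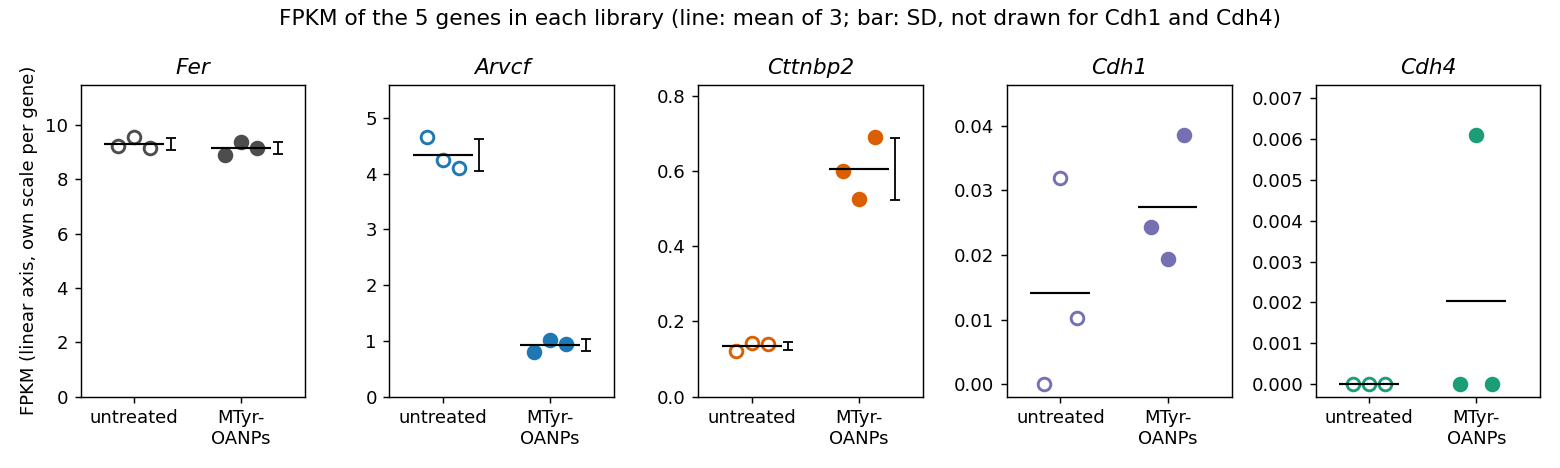
FPKM of Fer, Arvcf, Cttnbp2, Cdh1 and Cdh4 in the 3 untreated (open) and 3 treated (filled) libraries, on a linear axis of its own for each gene; lines are means and bars SD, with counts of 0 drawn at 0. The treated libraries lie between 0.809 and 1.02 FPKM for Arvcf, below all untreated ones, and between 0.525 and 0.691 FPKM for Cttnbp2, above all untreated ones, while the groups overlap for Fer, Cdh1 and Cdh4.

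Fer is a cytoplasmic tyrosine kinase that binds p120 catenin and phosphorylates cortactin. It had the highest level of the 5 genes in every library. Counts were 3600, 3450 and 3405 in untreated libraries 1, 2 and 3 and 2815, 3727 and 3655 in treated libraries 1, 2 and 3. Relative to depth these were 9.23, 9.57 and 9.15 FPKM untreated and 8.92, 9.37 and 9.16 FPKM treated. The groups overlapped, and the lower count of treated library 1 went with its lower depth, 0.85 against 0.971 to 1.07 in the other libraries.

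The mean of Fer was 9.32 ± 0.219 FPKM untreated and 9.15 ± 0.226 FPKM treated (SD, n = 3 each). The log2 fold change was -0.03 (SE 0.03, edgeR adjusted p = 0.74). In limma on log2(FPKM + 0.1) the 95% interval of the log2 difference ran from -0.14 to 0.09, or from a change of -9.06% to one of 6.07% in level. The direction of Fer depended on how libraries were scaled. TMM scaling, which rests on the few genes of the table and moved the median log2 fold change of all tested genes by 0.187, gave 0.16 for Fer (edgeR adjusted p = 0.04). No exon of Fer overlaps an exon of another annotated gene. The span of A930002H24Rik, a protein-coding gene on the opposite strand, overlaps that of Fer by 492 bases.

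Cttnbp2 encodes a protein that binds the SH3 domain of cortactin and is best known from dendritic spines of neurons, where it keeps cortactin in place. Its counts were 91, 97 and 99 in untreated libraries 1, 2 and 3 and 359, 395 and 522 in treated libraries 1, 2 and 3. In FPKM these were 0.122, 0.142 and 0.14 untreated and 0.6, 0.525 and 0.691 treated. Each treated library lay above every untreated one, and such a lack of overlap was found for 78.8% of the tested genes. The mean went from 0.135 ± 0.0109 to 0.605 ± 0.0835 FPKM (SD, n = 3 each), a 4.47-fold rise. The log2 fold change was 2.16 (SE 0.13, edgeR adjusted p = 2.6e-08), the fourth highest of the 66.

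Cttnbp2 stayed under 1 FPKM in all libraries, and its mean count over the 6 libraries was 260.5. With a pseudocount of 1 in limma its log2 difference was 0.5, since a pseudocount above the level itself hides most of a change. Exons of Cttnbp2 share 547 bases, 6.2% of its exonic bases, with Gm15594, a gene annotated as antisense. Reads of that gene, which was not analysed here, may not have been told apart. A rise in every cell and a rise in a few cells cannot be told apart in these libraries of pooled cells.

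**Figure D2:**
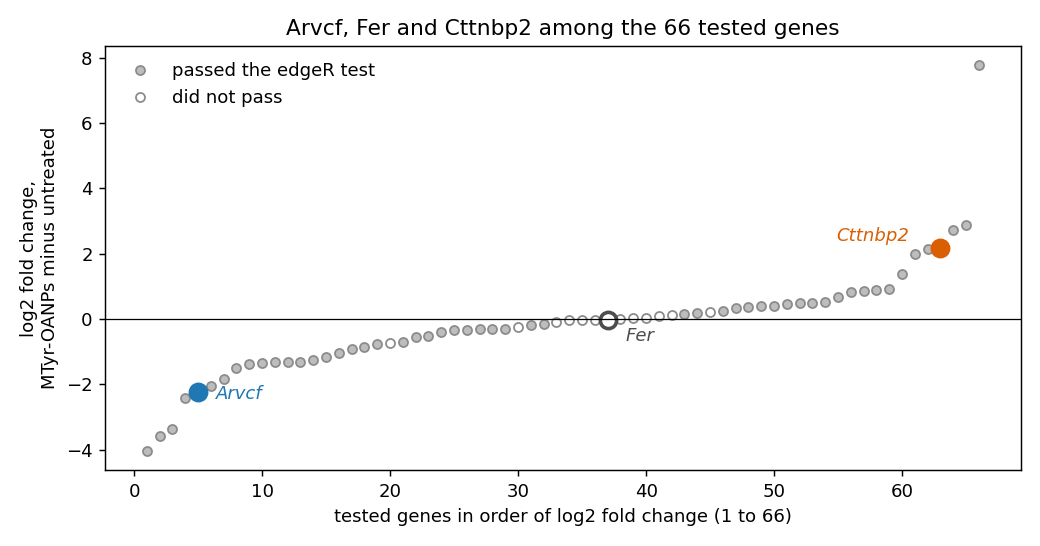
Log2 fold change (treated minus untreated) of the 66 tested genes in rising order, with Arvcf, Fer and Cttnbp2 in colour; filled points passed edgeR's test. Arvcf at -2.23 and Cttnbp2 at 2.16 lie toward the opposite ends of the range and Fer at -0.03 lies in its middle.

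Within the untreated libraries the order of FPKM levels was Fer, Arvcf, Cttnbp2 and Cdh1, with Cdh4 at 0. The ranges of neighbours in that order did not overlap, except for Cdh1 and Cdh4, which shared the value 0. The treated libraries kept the order. Arvcf and Cttnbp2 came close there, with 0.809 FPKM in the lowest library of Arvcf and 0.691 FPKM in the highest of Cttnbp2.

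Ratios between 2 genes of the same library do not depend on how libraries are scaled. The FPKM of Arvcf was 38.1, 29.8 and 29.3 times that of Cttnbp2 in untreated libraries 1, 2 and 3. After treatment it was 1.35, 1.94 and 1.35 times that of Cttnbp2 in libraries 1, 2 and 3. The groups were far apart. The log2 ratio changed by -4.4 (SE 0.21), which is 21.1-fold.

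The ratio of Arvcf to Fer was 0.505, 0.443 and 0.449 in untreated libraries 1, 2 and 3 and 0.0907, 0.109 and 0.102 in treated libraries 1, 2 and 3. Its log2 value changed by -2.21 (SE 0.1). The ratio of Fer to Cttnbp2 was 75.4, 67.2 and 65.3 in untreated libraries 1, 2 and 3 and 14.9, 17.9 and 13.2 in treated libraries 1, 2 and 3. Its log2 value changed by -2.19 (SE 0.14). For each of the 3 ratios the groups did not overlap, as was found for 78.8% of single tested genes. The share over other pairs of genes was not computed, and any 2 of these ratios fix the third. The exact permutation test gave p = 0.1 for each (two-sided, adjusted p = 0.1 over 3 pairs), the smallest p that 3 against 3 libraries allow.

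**Figure D3:**
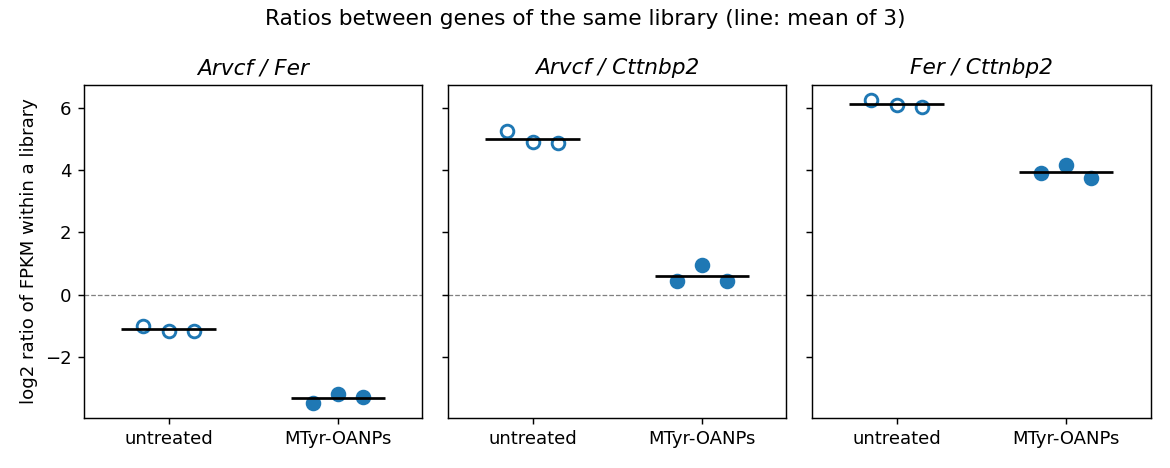
Log2 ratio of FPKM between 2 genes of the same library for Arvcf over Fer, Arvcf over Cttnbp2 and Fer over Cttnbp2, in untreated (open) and treated (filled) libraries; lines are means of 3 and the dashed line marks equal levels. All 3 ratios are lower after treatment, and that of Arvcf to Cttnbp2 goes from a mean log2 value of 5.01 to 0.61.

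Replicates of Arvcf and Cttnbp2 differed little beside the changes of these genes, while Fer changed by less than its SD in either group. The coefficient of variation of FPKM was 2.36% untreated and 2.47% treated for Fer, 6.63% and 11.4% for Arvcf and 8.09% and 13.8% for Cttnbp2. The spread of Arvcf and Cttnbp2 was wider than that of Fer in both groups.

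Genes of the same contacts are few in the table. Of 169 genes in 6 lists on cadherins, catenins, cortactin partners, adherens junctions, repressors of the E-cadherin gene and integrins, 8 are present, and 5 of these are the genes above. The cadherin list has 2 of 50 genes in the table, neither tested. The catenin list has 1 of 13, Arvcf, which fell. The list of cortactin and its partners has 2 of 36, of which Cttnbp2 rose and Fer did not pass. The adherens junction list has 2 of 36, of which Fer was tested and did not pass.

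Among repressors of the E-cadherin gene, 1 of 13 is present. This is Tbx2, a T-box factor reported to repress that gene in human cancer cells. Tbx2 had 59, 61.7 and 59.2 FPKM in untreated libraries 1, 2 and 3 and 16.9, 16.1 and 17.1 FPKM in treated libraries 1, 2 and 3. It fell 3.59-fold (log2 fold change -1.84, SE 0.03, edgeR adjusted p = 7.1e-19). Its groups did not overlap, as was found for 78.8% of the tested genes. Cdh1 had 16 counts or fewer in every library, too few to tell a difference of the size seen from none. A link between Tbx2 and Cdh1 was not tested.

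The integrin list, for receptors of cell-matrix and leukocyte contacts, has 2 of 26 genes in the table, and both rose. Itga5, part of a fibronectin receptor, rose by 0.68 on the log2 scale (SE 0.03, edgeR adjusted p = 3.4e-12). Itgb2, a chain shared by leukocyte integrins, rose by 2.0 (SE 0.33, edgeR adjusted p = 5.7e-07). Among all 66 tested genes 34.8% passed and were higher, and the median log2 fold change was -0.06. With 2 genes, the list allows no comparison with that share.

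The tested genes whose profiles were most like those of the members were found by the root-mean-square difference of centred log2(FPKM + 0.1) over the 6 libraries. For Arvcf these were Tbx2 at 0.188, Acvrl1 at 0.369 and Cav2 at 0.389, against a median of 1.05 over the 65 other genes. For Cttnbp2 they were Zfp385a at 0.148, Lck at 0.21 and Itgb2 at 0.249, against a median of 0.87. For Fer they included Tbx4 at 0.038 and Rtca at 0.076, against a median of 0.34. With 2 groups of libraries, likeness mostly reflects a similar size of change on this scale, where the pseudocount shrinks changes of low genes. The log2 change on it was 1.58 for Cttnbp2 and 1.37 for Zfp385a, against 2.16 and 1.37 in edgeR. In edgeR, Lck at 2.13 and Itgb2 at 2.0 lay nearer to Cttnbp2 than Zfp385a did.

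The melanoma identity of the cells could not be checked, since none of 10 melanocyte and melanoma markers is among the 99 genes. Each list for another cell type had 1 gene in the table. The epithelial list of 11 had Cdh1 alone, and the fibroblast list of 9 had Fap, at 0 in all treated libraries and at most 0.0329 FPKM in an untreated one. The neuronal list of 6 had Th, at most 0.0236 FPKM. Markers that moved with Cttnbp2 were Lck of the lymphoid list of 10, from 0.241 to 0.392 FPKM untreated and from 1.09 to 1.48 FPKM treated, and Itgb2 of the myeloid list of 8, from 0.249 to 0.521 FPKM untreated and from 1.54 to 1.75 FPKM treated. Acvrl1 of the endothelial list of 7 fell with Arvcf, from between 9.93 and 10.1 FPKM to between 2.74 and 4.64 FPKM. Their part in the changes of Arvcf and Cttnbp2 was not tested.

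**Figure D4:**
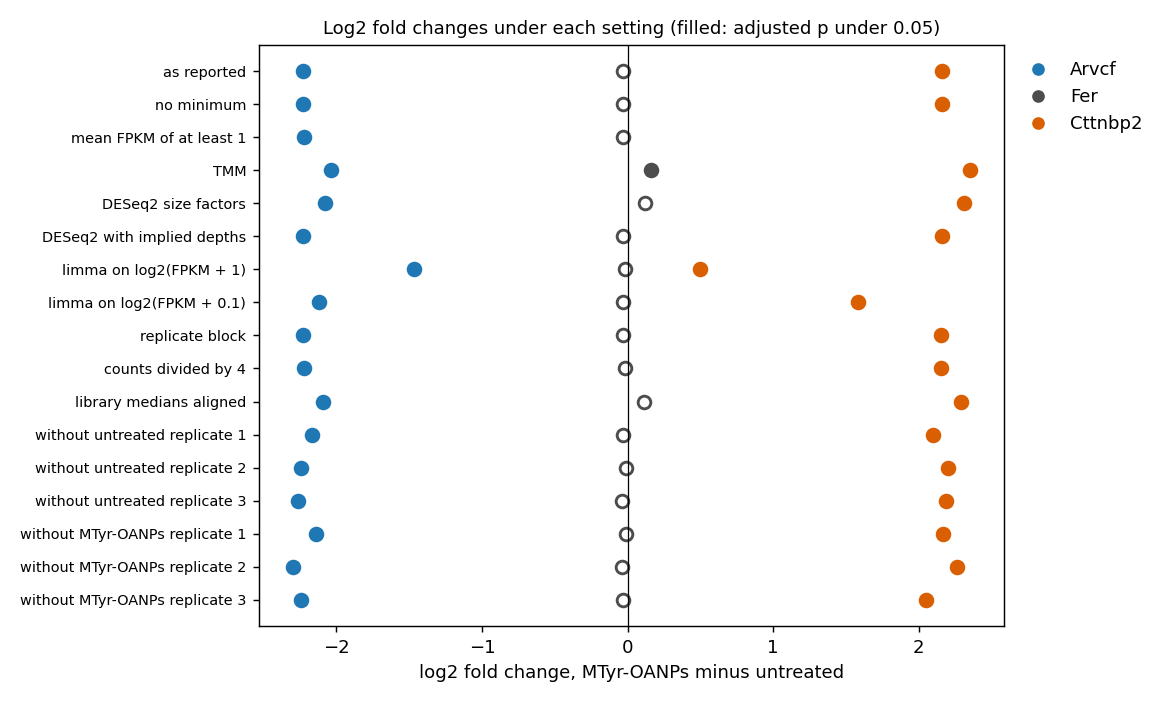
Log2 fold change of Arvcf, Fer and Cttnbp2 as reported and under each other setting, filled where the adjusted p was under 0.05. Arvcf stays between -2.3 and -1.47 and Cttnbp2 between 0.5 and 2.35, and Fer lies near 0 and passes the test under TMM alone.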

How the data were processed

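Poly(A) RNA of B16F10 cells was sequenced as read pairs on an Illumina NovaSeq, per the labels' protocols. Per the file headers, the authors deposited a count for each gene in each library as a whole number. FPKM by the authors stand beside the counts in the deposited table, with 0.0001 listed for each of the 173 counts of 0; these were treated as 0 here. The submitters' processing notes name CASAVA 1.4 and mm9; the table's coordinates follow GRCm38, as in GENCODE M21. No source used here gives the aligner, counter or strand setting. The table analysed here has 99 genes, so shares of genes that passed hold for this table alone.

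Counts divided by FPKM over 59 genes with counts of at least 50 gave relative depths of 0.85 to 1.07, which served as library sizes. Table totals ran from 334160 to 421423 counts. edgeR 4.0.16 (R 4.3.3) tested genes that reached a mean count of 10, a minimum blind to group that keeps long genes of low FPKM; its common dispersion was 0.00651. SEs came from log2 FPKM within groups. Exact permutation tests used scipy 1.17.1. limma 3.58.1 and DESeq2 1.42.0 served as alternatives. Counts of replicate pairs differed by more than sampling noise (chi-square per degree of freedom of at least 9.98, or 2.49 if 4 counts are 1 event). The 5 genes were given by name; the text adds every gene of the 6 lists in the table and, for each tested member, the 3 genes of most similar profile. The result of 1 gene is not reported here. Members and lists were chosen with earlier results of these data known.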

Additional observations from a re-analysis of the deposited data

How the results depend on the processing

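Arvcf fell and passed the test in all 16 alternatives, and Cttnbp2 rose and passed in all 15 in which it was tested; it is below a mean FPKM of 1. Their log2 fold changes ran from -2.3 to -1.47 and from 0.5 to 2.35, with the smallest sizes in limma on log2(FPKM + 1), where the pseudocount shrinks low genes. Fer turned positive under TMM (0.16, adjusted p = 0.04), DESeq2 size factors (0.12, adjusted p = 0.066) and aligned library medians (0.11, adjusted p = 0.23), which moved all genes by a median of 0.187, 0.15 and 0.132. When 1 library was left out, Arvcf ran from -2.3 to -2.14, Fer from -0.04 to -0.01, Cttnbp2 from 2.05 to 2.26, and the number of genes passing from 45 to 53; over all alternatives 44 to 54 genes passed, against 53. The mean difference of Cdh1 ran from 0.00637 to 0.0223 FPKM when 1 library was left out, and that of Cdh4 from 0, without treated library 2, to 0.00305; none passed. The log2 ratios kept their direction in all 9 alternatives each. Of these, ratios of counts and the replicate block repeat the reported change by construction, apart from rounding, and are no further check. Arvcf to Cttnbp2 ran from -4.57 to -3.7, Arvcf to Fer from -2.27 to -2.1 and Fer to Cttnbp2 from -2.3 to -1.61. With the replicate number as a block, 54 genes passed, with -2.23 for Arvcf, -0.03 for Fer and 2.15 for Cttnbp2. Deviations from group means of libraries with the same number correlated at -0.18, 0.12 and 0.11, and not every library correlated best with its own number, so the numbers were not taken to pair the libraries. Aligned medians, counts divided by 4 and DESeq2 with implied depths were added after the data were seen. Counts of 16 or fewer leave the cadherins without a usable comparison.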
